A study of Homo sapiens with 6 samples.

Results

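The sterol regulatory element-binding protein (SREBP) processing machinery was examined in RNA-seq libraries labelled as the human osteosarcoma line Saos-2. It was taken as 9 genes picked by symbol: the factors SREBF1 and SREBF2, the escort SCAP, the retention proteins INSIG1 and INSIG2, the site proteases MBTPS1 and MBTPS2, the sterol carrier STARD4 and the LDL receptor regulator MYLIP. All 9 were among the 13439 genes of the deposited table. The genes were proposed with their AIL and DMSO values in this table in view, so their differences, counts and adjusted p-values below are a description and no independent support. One group of cells received 0.20 µM AIL for 24 h and the other received the solvent DMSO for 24 h, with 3 libraries in each. AIL is ailanthone, a plant compound of the quassinoid class, used here at what the labels state to be its IC50. Both groups grew in medium with 10% fetal bovine serum. The labels call them biological replicates but do not describe separate cultures, and the p-values therefore measure the spread between these samples, which may be technical.

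The values are CPM (read counts scaled to a common library size) that the authors adjusted by TMM. Differences are AIL minus DMSO on log2(CPM + 1), tested with limma over the 11069 genes that averaged 1 CPM or more, and a gene was called at a Benjamini-Hochberg adjusted p under 0.05. The value of 1 read in each library gave scaled depths of 35910000 to 38050000 reads under AIL and 32540000 to 35830000 under DMSO. Of 8 osteoblast lineage markers, 4 were among the genes analysed here. RUNX2 averaged 4.72 CPM under AIL and 4.66 CPM under DMSO, while SPP1, SPARC and BGLAP averaged 0.167, 0.197 and 0.0833 CPM under AIL and 0.223, 0.173 and 0.01 CPM under DMSO. The libraries are therefore called here by their label, since 3 of these 4 markers were near 0 in both groups. Of 6 immune markers, only CD68 was among the genes analysed here, at 2.95 CPM under AIL and 0.763 CPM under DMSO, and none of the 6 epithelial markers was. Mitochondrially encoded transcripts summed to 3600.5 to 3726.0 CPM under AIL and 4205.4 to 4373.7 CPM under DMSO. These sums do not measure RNA integrity, for which the labels give a RIN above 8.0 in both groups. Against 25.9% of all tested genes, 10 of these 13 transcripts were called lower. Their part in the results below was not tested. In bulk samples, fewer cells of a type and less RNA per cell cannot be told apart.

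SREBPs are transcription factors made as precursors in the membrane of the endoplasmic reticulum (ER). When sterols are scarce, SCAP escorts them in COPII vesicles to the Golgi, where the site-1 protease (MBTPS1) and then the site-2 protease (MBTPS2) release the part that enters the nucleus and turns on genes of sterol and fatty acid synthesis. When sterols are plentiful, the INSIG proteins hold SCAP in the ER. SREBF2, INSIG1 and STARD4 are themselves known SREBP targets.

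The start regions of the 3 genes with the lowest differences, MBTPS1, STARD4 and INSIG1, and of SREBF2 are shown first, because the promoter of SREBF2 held a sterol regulatory element (SRE). Each runs from 250 bases before to 50 bases after the start in RefSeq (GRCh38.p14), on the strand of the gene. Capitals mark the exact SRE (ATCACCCCAC, the letters as they stand in the SREBF2 window) or a CCAAT box (CCAAT, read as ATTGG on the other strand). The windows lie at chr16:84116893-84117192 (minus strand) for MBTPS1, chr5:111512486-111512785 (minus strand) for STARD4, chr7:155297628-155297927 (plus strand) for INSIG1 and chr22:41832855-41833154 (plus strand) for SREBF2.
MBTPS1: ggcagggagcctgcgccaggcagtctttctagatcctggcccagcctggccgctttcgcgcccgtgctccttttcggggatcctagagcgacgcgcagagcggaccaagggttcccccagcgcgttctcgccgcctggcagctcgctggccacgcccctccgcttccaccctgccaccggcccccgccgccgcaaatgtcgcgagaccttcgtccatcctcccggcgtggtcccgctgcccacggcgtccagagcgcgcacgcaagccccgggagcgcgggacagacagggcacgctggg
STARD4: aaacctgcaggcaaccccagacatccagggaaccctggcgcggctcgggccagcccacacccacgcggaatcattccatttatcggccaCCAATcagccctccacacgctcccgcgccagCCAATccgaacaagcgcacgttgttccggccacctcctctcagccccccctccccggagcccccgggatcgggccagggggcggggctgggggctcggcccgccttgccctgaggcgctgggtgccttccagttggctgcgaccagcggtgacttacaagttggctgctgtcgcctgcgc
INSIG1: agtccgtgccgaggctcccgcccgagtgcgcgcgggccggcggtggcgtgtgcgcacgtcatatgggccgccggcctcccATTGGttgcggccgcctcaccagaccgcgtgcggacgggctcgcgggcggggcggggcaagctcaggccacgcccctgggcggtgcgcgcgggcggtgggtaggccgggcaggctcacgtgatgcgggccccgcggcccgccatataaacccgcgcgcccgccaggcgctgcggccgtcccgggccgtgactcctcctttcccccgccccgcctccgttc
SREBF2: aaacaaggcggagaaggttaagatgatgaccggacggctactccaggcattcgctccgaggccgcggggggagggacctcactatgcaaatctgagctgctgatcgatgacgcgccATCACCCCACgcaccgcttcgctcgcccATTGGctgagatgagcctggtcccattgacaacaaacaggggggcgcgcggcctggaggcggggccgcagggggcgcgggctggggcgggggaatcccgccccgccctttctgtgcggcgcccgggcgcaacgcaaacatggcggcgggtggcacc

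Both strands were searched. The SRE of SREBF2 began at position -134 on the gene's own strand, counted from the start, and a CCAAT box in reverse began at -106. These 10 letters were read from that window, so SREBF2 had to match and its match is no finding. They occurred in 16 of 35116 start windows of the RefSeq table (0.0456%). A looser form, TCACNCCAC, which overlaps the exact SRE in SREBF2, was in 1.13% of windows. Neither form occurred in the windows of the other 8 genes, nor in those of the 15 sterol synthesis enzymes with a window. Absence of these letters therefore does not show that a window lacks an SRE with other letters. INSIG1 had 1 CCAAT box, at -170, and STARD4 had 2, at -161 and -130. MYLIP also had 2, and the MBTPS1 window had none. CCAAT boxes occurred in 34.6% of all windows. The GC box GGGCGG, bound by Sp1-type factors and left in lower case above, was found in these 4 windows 6 times for INSIG1 and 3 times for SREBF2, once for STARD4 and not for MBTPS1, against 45% of all windows with at least 1. These matches describe letters in 300-base windows, not sites shown to be bound, and elements outside a window were not searched.

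The 9 genes spanned a wide range of levels. Divided by transcript length (the median of the basic protein-coding transcripts of GENCODE release 29), STARD4 was highest, at 74.8 CPM per kilobase under AIL and 123 under DMSO. INSIG1 came next, at 32.3 under AIL and 52.9 under DMSO, followed by MBTPS1 at 22.5 under AIL and 42.6 under DMSO. SREBF2, the main factor for sterol genes, stood at 13.5 CPM per kilobase under AIL and 15.8 under DMSO, close to SCAP at 12.1 under AIL and 11.9 under DMSO. SREBF1, INSIG2 and MBTPS2 lay lower, at 4.93, 4.33 and 2.86 CPM per kilobase under AIL and 5.9, 4.07 and 2.4 under DMSO. MYLIP was at 0.193 under AIL and 0.209 under DMSO. The order was the same in both groups. Under AIL, the ranges of the 3 libraries overlapped between SREBF2 and SCAP and between SREBF1 and INSIG2. No neighbours in the order overlapped under DMSO. This order depends on the lengths used: STARD4 was divided by 1467 bases, while its annotated exons cover 5684 bases. In undivided CPM, MBTPS1 had the highest mean under DMSO (184.6 CPM, against 180.9 CPM for STARD4). The DMSO libraries of these genes overlapped, at 182.6 to 187.9 CPM for MBTPS1 and 176.8 to 186.9 CPM for STARD4. STARD4 was highest under AIL (109.7 CPM, against 97.7 CPM for MBTPS1).

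**Figure D1:**
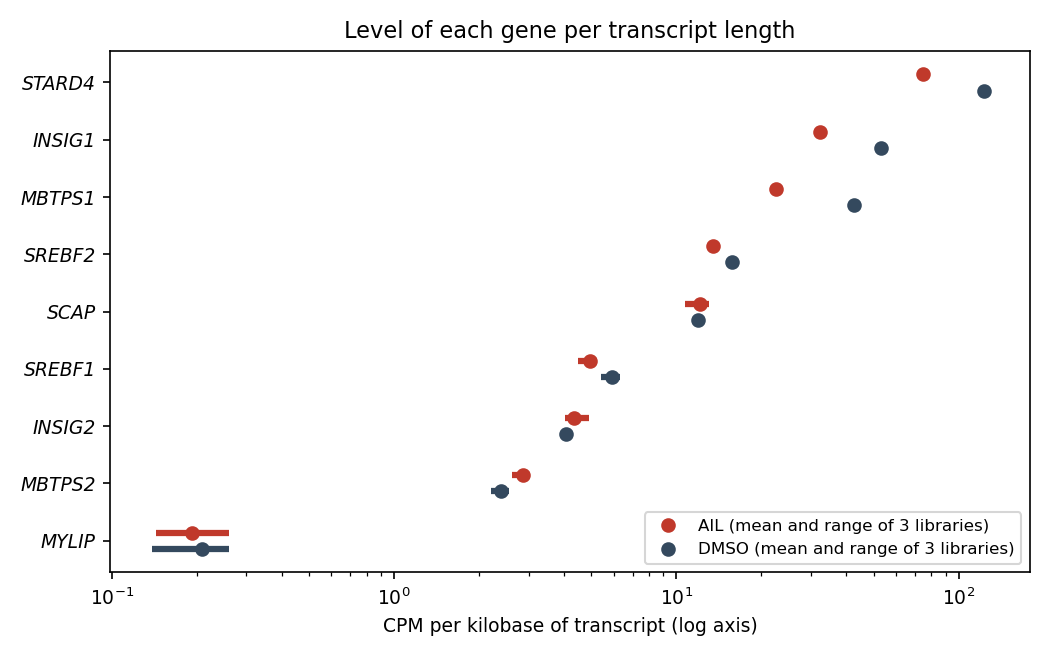
Mean level (points) and range over the 3 libraries (bars) of each gene in CPM per kilobase of transcript on a log axis, AIL above DMSO in each row. STARD4 is highest, at 74.8 under AIL and 123 under DMSO, and MYLIP lowest, at 0.193 under AIL and 0.209 under DMSO.

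Of the 9 genes, 8 passed the filter on low values, and MYLIP did not. Of these 8, 5 fell under AIL (MBTPS1, STARD4, INSIG1, SREBF1 and SREBF2), MBTPS2 rose, and SCAP and INSIG2 did not pass. Over the whole table, 25.9% of tested genes were called lower, 28.2% higher and 54.1% in either direction. The 2 groups of libraries did not overlap for 6 of the 8 genes, against 60.1% of all tested genes. Because the genes were chosen with these values known, nothing is read from these counts. The sizes differed more than the calls did: MBTPS1 ranked 4 from the lowest log2 difference among the 9723 genes averaging 5 CPM or more, STARD4 ranked 23 and INSIG1 25, whereas SREBF1 and SREBF2 ranked 886 and 1077.

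**Figure D2:**
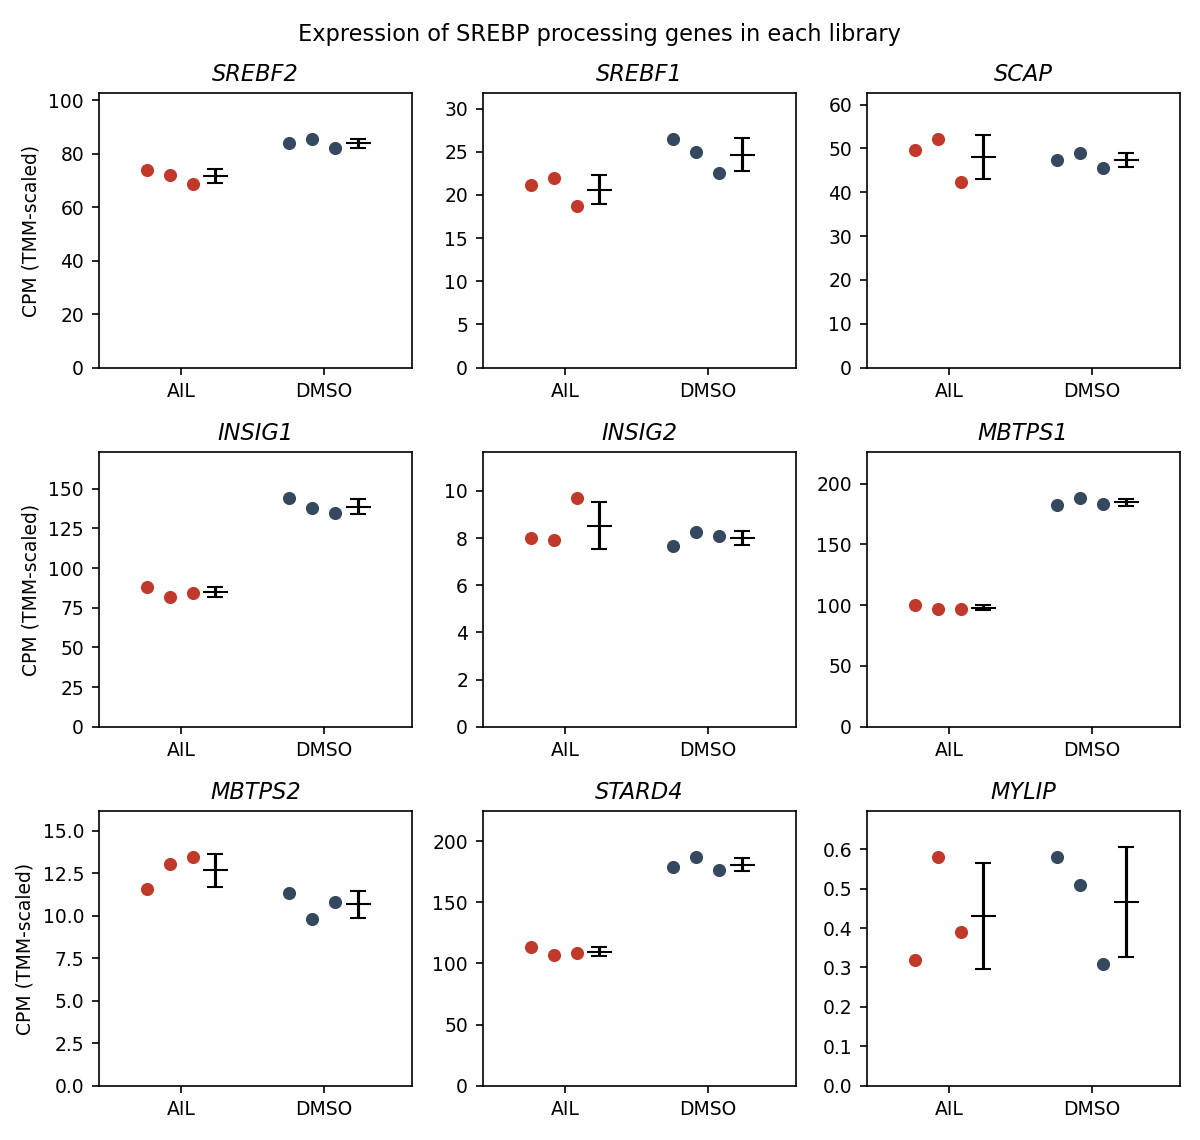
CPM of the 9 genes in each library, AIL on the left and DMSO on the right of every panel, with the mean and SD of the 3 libraries beside the points; every axis starts at 0. MBTPS1, STARD4 and INSIG1 are separated by wide gaps (for MBTPS1, 96.4 to 100.1 CPM under AIL and 182.6 to 187.9 CPM under DMSO), while SCAP, INSIG2 and MYLIP overlap.

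SREBF2, which encodes SREBP-2, had 73.8, 72.1 and 68.7 CPM in the AIL libraries, against 84.0, 85.4 and 82.2 CPM in the DMSO libraries. All AIL libraries lay below all DMSO libraries. The mean was 71.5 ± 2.6 CPM under AIL and 83.9 ± 1.61 CPM under DMSO (SD, n = 3 each), and the log2 difference was -0.23 (SE 0.0336, limma adjusted p = 2.17e-05). SREBF1, which encodes both forms of SREBP-1, had 21.2, 21.9 and 18.8 CPM under AIL, against 26.5, 24.9 and 22.6 CPM under DMSO. The groups were close but did not overlap, with the highest AIL library at 21.9 CPM and the lowest DMSO library at 22.6 CPM. SREBF1 fell by 16.4% in mean CPM (log2 difference -0.25, SE 0.0624, limma adjusted p = 0.00279) and SREBF2 fell by 14.7%. The ratio of SREBF1 to SREBF2 was 0.288 ± 0.0154 under AIL and 0.294 ± 0.02 under DMSO (SD, n = 3 each), with overlapping groups. Exons of RAI1, on the opposite strand, cover 6.92% of the exonic bases of SREBF1, and strand use in counting is not given in the sources used here. RAI1 averaged 13.2 CPM under AIL and 13.3 CPM under DMSO.

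SCAP, the escort that carries SREBPs out of the ER, had 49.7, 52.1 and 42.4 CPM under AIL, against 47.5, 48.9 and 45.6 CPM under DMSO. The AIL libraries lay on both sides of the DMSO libraries. Its log2 difference was 0.02 (limma adjusted p = 0.814), with a 95% interval of -0.10 to 0.14. The spread among AIL libraries was 10.5% of their mean, against 3.45% among DMSO libraries. Without AIL replicate 3, the library with 42.4 CPM, SCAP was called higher (log2 difference 0.10, limma adjusted p = 0.0256). That library also held the lowest AIL values of SREBF1 and SREBF2 and the highest of INSIG2 and MBTPS2.

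INSIG1, a retention protein whose gene is itself turned on by SREBPs, had 88.3, 81.9 and 84.4 CPM under AIL, against 144.1, 137.7 and 134.5 CPM under DMSO. The groups were far apart, with the highest AIL library at 88.3 CPM and the lowest DMSO library at 134.5 CPM. INSIG1 fell by 38.9% in mean CPM, with a log2 difference of -0.70 (SE 0.034, limma adjusted p = 4.95e-11). INSIG2, which does the same work and is not known as an SREBP target, had 7.99, 7.91 and 9.69 CPM under AIL, against 7.68, 8.26 and 8.09 CPM under DMSO. These values overlapped, and only AIL replicate 3 stood above all the DMSO libraries. Its log2 difference was 0.08, with a 95% interval of -0.08 to 0.24 (limma adjusted p = 0.414), and was -0.01 without AIL replicate 3. There were 10 ± 1.2 CPM of INSIG1 for each CPM of INSIG2 under AIL and 17.4 ± 1.22 under DMSO (SD, n = 3 each), and these ratios did not overlap. Neither gene shares a 50-base word of its transcripts with another annotated gene.

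The site proteases moved in opposite directions. MBTPS1, the serine protease of the proprotein convertase family that makes the first cut in SREBPs, had 100.1, 96.7 and 96.4 CPM under AIL, against 182.6, 187.9 and 183.3 CPM under DMSO. The libraries of each group lay close together, and the groups were far apart. MBTPS1 stood at 0.529 times its DMSO mean (log2 difference -0.91, 95% interval -0.97 to -0.85, limma adjusted p = 2.04e-13). No 50-base word of its transcripts is shared with another annotated gene. MBTPS2, the membrane metalloprotease that makes the second cut, had 11.6, 13.0 and 13.5 CPM under AIL, against 11.4, 9.81 and 10.8 CPM under DMSO. Its groups came near each other, with the lowest AIL library at 11.6 CPM and the highest DMSO library at 11.4 CPM. The rise of 18.9% in mean CPM (log2 difference 0.23, SE 0.0687, limma adjusted p = 0.00919) was lost without DMSO replicate 2 (log2 difference 0.18, limma adjusted p = 0.0598). YY2, a separate gene inside MBTPS2, shares 12.2% of the exonic bases of MBTPS2. It averaged 1.64 CPM under AIL and 1.27 CPM under DMSO, so reads that fit both genes are an uncertain part of the MBTPS2 value. The ratio of MBTPS1 to MBTPS2 was 7.74 ± 0.784 under AIL and 17.4 ± 1.6 under DMSO (SD, n = 3 each), without overlap between the groups.

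STARD4 encodes a soluble carrier that moves cholesterol between membranes, including to the ER. It had 113.8, 106.6 and 108.7 CPM under AIL, against 179.1, 186.9 and 176.8 CPM under DMSO. The groups were far apart, with no AIL library above 113.8 CPM and no DMSO library below 176.8 CPM. STARD4 fell by 39.4% in mean CPM, with a log2 difference of -0.72 (SE 0.0313, limma adjusted p = 1.53e-11). STARD4 and INSIG1 stayed close across the 6 libraries: their log2(CPM + 1) values, each set against its DMSO mean, differed by 0.0296 on average.

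MYLIP, a ubiquitin ligase that marks the LDL receptor for breakdown and is induced by liver X receptors, had 0.32, 0.58 and 0.39 CPM under AIL, against 0.58, 0.51 and 0.31 CPM under DMSO. These values correspond to between 11 and 21 reads a library, and the groups overlapped fully. With no filter on low values its log2 difference was -0.04, with a 95% interval of -0.22 to 0.15 (limma adjusted p = 0.773). Because 1 is added to values that lie below 1 CPM, this scale shrinks fold changes. The interval therefore does not bound the change in CPM itself. A change was not detectable at this depth.

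**Figure D3:**
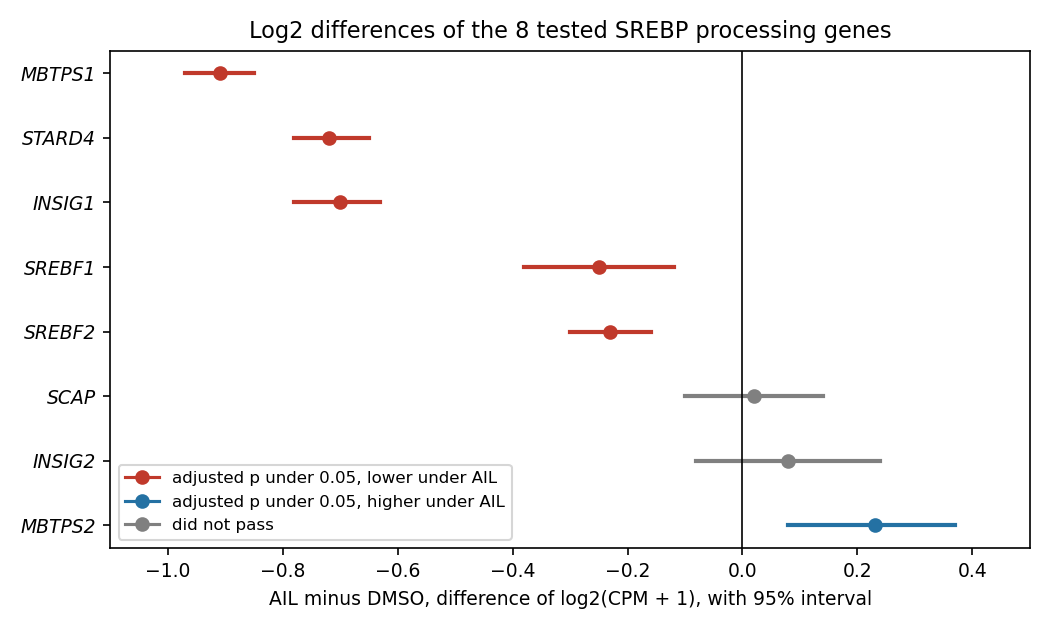
Log2 difference, AIL minus DMSO, on log2(CPM + 1) for the 8 tested genes (points) with 95% intervals from the limma fit (bars). MBTPS1 (-0.91), STARD4 (-0.72) and INSIG1 (-0.70) lie apart from SREBF1 (-0.25) and SREBF2 (-0.23), and MBTPS2 (0.23) is on the other side of 0.

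The genes around this machinery were followed in lists, and no test was made of a list as a whole. The lists were chosen with earlier results of these data known. Of all tested genes, 25.9% were called lower and 28.2% higher. Of 20 sterol synthesis enzymes, which SREBP-2 turns on, 18 fell and 0 rose. Their median log2 difference was -0.57, against 0.0083 over all tested genes. CYP51A1, the lanosterol demethylase, averaged 252.4 ± 4.22 CPM under AIL and 390.9 ± 3.99 CPM under DMSO (SD, n = 3 each; log2 difference -0.63, limma adjusted p = 4.21e-12). HMGCS1, which makes HMG-CoA, and SQLE, which oxidises squalene, fell too, with log2 differences of -1.06 and -0.76. The 2 that did not pass, named after their values were seen, were PMVK (log2 difference 0.11) and TM7SF2 (-0.03). Without AIL replicate 3, 1 of the 20 was called higher. Of 11 fatty acid synthesis enzymes, 9 fell and 0 rose (median -0.32). SCD, a desaturase, ACACA, the carboxylase that commits carbon to fatty acids, FADS1 and ACLY fell, with log2 differences of -0.89, -0.46, -0.32 and -0.33. FASN, the fatty acid synthase, averaged 71.6 CPM under AIL and 71.9 CPM under DMSO, and ME1 averaged 30.8 CPM under AIL and 33.6 CPM under DMSO; these 2 did not pass and were likewise named after their values were seen. Beside these lists the mitochondrially encoded transcripts had a median of -0.20, and their part was not tested.

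A further list held regulators that degrade or retain the pathway's proteins and some genes with other roles, among them TMEM97 and C12orf49. Of 16, 10 fell and 0 rose, with a median of -0.11. TMEM97 and RNF145, a membrane protein tied to sterol handling and an ER ubiquitin ligase, fell, with log2 differences of -0.73 and -0.61. VCP, which extracts proteins from the ER membrane, also fell (-0.36). C12orf49, a cofactor of the site-1 protease named outside the rule, averaged 45.5 CPM under AIL and 47.4 CPM under DMSO (log2 difference -0.06, limma adjusted p = 0.206). Of 12 COPII coat genes, which form the vesicles that carry SCAP, 5 fell and 3 rose, and the median log2 difference was 0.03. With 25.9% of all tested genes called lower and 28.2% higher, nothing is read from these counts. SEC23A, SEC31A and SAR1A fell, with log2 differences of -0.24, -0.23 and -0.19, and SEC16A, which marks ER exit sites, averaged 61.8 CPM under AIL and 42.8 CPM under DMSO (log2 difference 0.52).

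Of 6 tested genes for other proteins cut by the site-1 protease, GNPTAB, an enzyme of the lysosomal targeting tag, fell (log2 difference -0.24), CREB3 rose (0.11) and 4 did not pass. The rise of CREB3 was lost without AIL replicate 1 or DMSO replicate 1, which left 0 called higher. CREB3L2 was at 10.5 CPM under AIL and 9.45 CPM under DMSO. ATF6, an ER stress factor cut by both site proteases, averaged 91.9 ± 2.91 CPM under AIL and 95.5 ± 1.06 CPM under DMSO (SD, n = 3 each; limma adjusted p = 0.139). Of 14 genes listed for the ATF6 arm, chaperones and some genes of ER-associated degradation, 12 fell and 0 rose (median -0.45). The 2 that did not pass, named after their values were seen, were the degradation genes HERPUD1 (log2 difference -0.07) and SYVN1 (0.01). Over all tested genes, 25.9% were called lower and 28.2% higher. HSPA5, the ER HSP70, averaged 217.7 ± 10.1 CPM under AIL and 329.4 ± 5.46 CPM under DMSO. PDIA4, CALR and HSP90B1, which fold proteins in the ER, fell as well (-0.88, -0.61 and -0.55). Among proprotein convertases, the family of MBTPS1, FURIN averaged 31.3 CPM under AIL and 45.9 CPM under DMSO. PCSK7 averaged 40.5 CPM under AIL and 46.4 CPM under DMSO, and PCSK6 22.9 CPM under AIL and 22.1 CPM under DMSO. The part of the mitochondrially encoded transcripts, with their median of -0.20, was not tested here either.

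Genes of sterol transport and of the liver X receptors are the setting of STARD4 and MYLIP. With 25.9% of all tested genes called lower, 28.2% higher and 54.1% in either direction, nothing is read from their counts. Of 15 tested sterol transport genes, 3 fell, 1 rose and 11 did not pass (median -0.01). STARD3NL, SOAT1, which esterifies cholesterol, and OSBPL2 fell, with log2 differences of -0.35, -0.18 and -0.11, and NPC2, a lysosomal cholesterol carrier, rose (0.13). With a replicate block, or without AIL replicate 3 or DMSO replicate 1, 2 of the 15 were called higher. Of 6 genes for liver X receptors, their RXR partners and their targets, 1 fell, 1 rose and 4 did not pass. NR1H2, which encodes LXR-beta, averaged 42.4 CPM under AIL and 32.2 CPM under DMSO (log2 difference 0.39), and LPCAT3, a phospholipid remodelling enzyme, averaged 9.69 CPM under AIL and 13.4 CPM under DMSO (-0.43). RXRA and RXRB, which encode partners of the liver X receptors, had log2 differences of 0.07 each and did not pass.

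**Figure D4:**
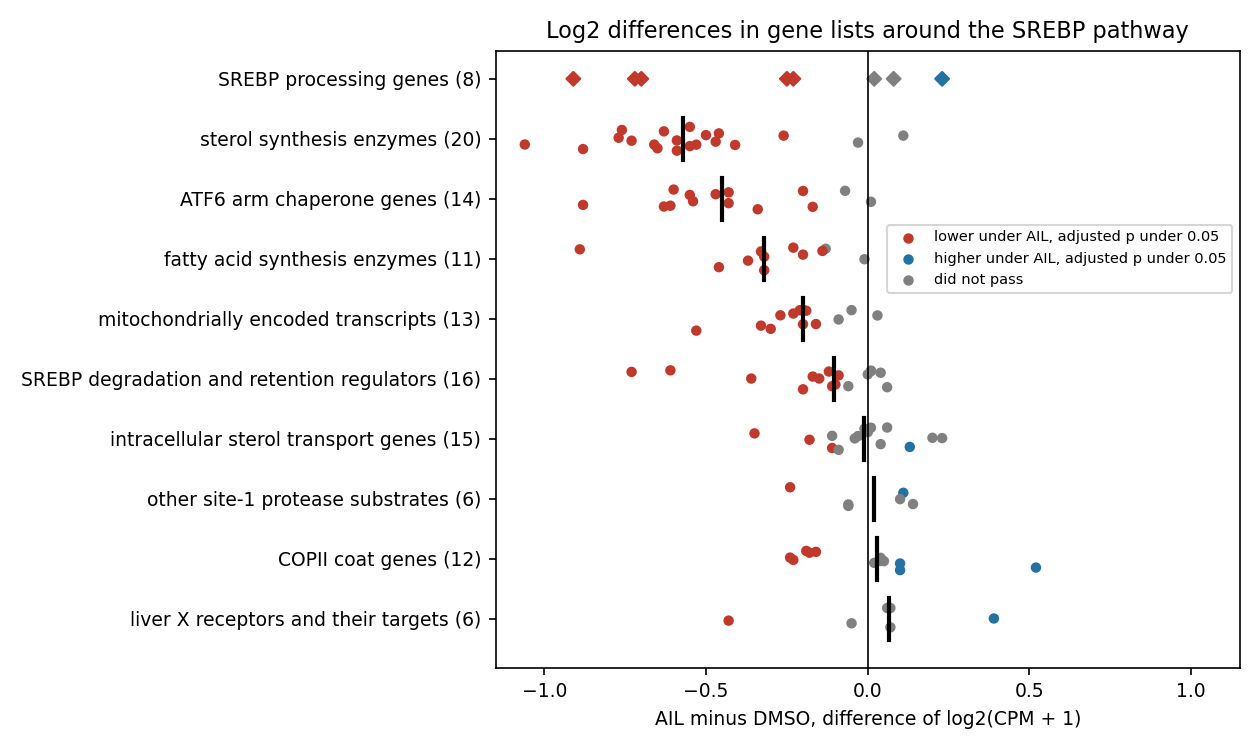
Log2 difference, AIL minus DMSO, of every tested gene (points) in each list with at least 5 tested genes, with the list median as a black line and the number tested in brackets; red points are called lower, blue higher and grey did not pass. Sterol synthesis enzymes have the lowest median (-0.57), and COPII, transport and liver X receptor lists lie around 0.

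The profiles most like those of MBTPS1 and INSIG1 were found among 9688 other genes averaging 5 CPM or more, with genes named only after a clone left out. Likeness was the mean absolute difference, over the 6 libraries, of log2(CPM + 1) set against its DMSO mean. For MBTPS1 they were SCD (0.0165), PDIA4 (0.0229), ITGB8 (0.0316), ADAM19 (0.0325) and SPTB (0.0404), that is a desaturase, an ER disulfide isomerase, an integrin subunit, a metalloprotease and a spectrin. For INSIG1 they included FAM64A (0.0162), TMEM97 (0.0215), CALU (0.0332) and PRSS23 (0.0357). With 6 libraries in 2 groups, this likeness mostly reflects a similar difference between AIL and DMSO.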

How the data were processed

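For AIL and DMSO cells, 3 libraries each, the authors deposited 1 table of TMM-normalized expression for 6 libraries, read as CPM from the table's name and its values and printed to 2 decimals; all value columns were used. RSEM and edgeR 3.8.5 are named in the submitters' processing notes, with no role. RNA of RIN above 8.0 entered a TruSeq preparation, per the labels' protocols. The sources used here name no aligner, build, annotation or strand setting. TMM assumes that most genes do not change.

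Low values were whole multiples of 1 read in each library (99.95 to 99.98% of values up to 2000 reads within 0.2 reads). Rounding left 51.1 to 80.5% of the lowest values within 0.1 reads. No count test was run. The tests were two-sided and used limma 3.58.1 (R 4.3.3), fitted to log2(CPM + 1) of genes averaging 1 CPM or more. They used an intensity trend and Benjamini-Hochberg adjustment over 11069 genes. The fit was also run on simulated data, with fewer changed genes than were called here and a spread taken from the DMSO libraries. That run therefore does not give error rates for these data. Replicates of a group differed by 1.71 to 5.42 times the counting variance. Deviations from group means correlated at 0.159, 0.133 and 0.129 between same-numbered AIL and DMSO libraries, so a replicate block was an alternative; this pairing comes from the data alone. Other alternatives were pseudocounts, filters, scalings, no trend and leaving out each library.

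The 9 genes and the lists were chosen with earlier results of these data known. Named genes were these 9, up to 4 genes of each list with the smallest p, and the 5 most alike in profile to MBTPS1 and to INSIG1; some genes that this rule names are not reported here. Start windows are from RefSeq (GRCh38.p14); overlaps, lengths and shared 50-base words are from GENCODE release 29.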

Additional observations from a re-analysis of the deposited data

How the results depend on the processing

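All 64 values of the 8 tested genes under pseudocounts of 0.1 and 5, no filter or a mean of 5 CPM, median-of-ratios or quantile scaling, no intensity trend and a replicate block kept their direction and call, and the counts of calls over all genes and over the 9 genes stayed within 1.5 times. In these settings the MBTPS1 difference was -0.92 to -0.88 and that of INSIG1 -0.71 to -0.68. With the replicate block MBTPS1 stayed at -0.91, and 2 sterol transport genes were called higher, as without an intensity trend, against 1; the block changed no call of the 8 genes and no other list count. Leaving out each library in turn gave 2709 to 3270 genes called higher and 2527 to 2924 lower, 0 to 2 of the 9 genes called higher, and log2 differences of -0.04 to 0.10 for SCAP, -0.01 to 0.12 for INSIG2 and 0.18 to 0.29 for MBTPS2. SCAP turned below 0 without AIL replicate 1 (-0.0087), AIL replicate 2 (-0.0429) or DMSO replicate 3 (-0.0085) and was 0.1031 without AIL replicate 3, where INSIG2 was -0.0091. MBTPS2 was 0.1756 without DMSO replicate 2. List counts of higher genes ranged over 1 to 2 for sterol transport, 0 to 1 for site-1 protease substrates (0 without AIL replicate 1 or DMSO replicate 1) and 0 to 1 for sterol synthesis; lower calls among regulators ranged over 7 to 10. Small counts, as for MYLIP, limit what can be seen. The cause was not tested in any of these cases.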

Other observations

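The exact SRE letters of the SREBF2 window were found in the start windows of 16 of 27305 genes, and 4 of these genes were tested. Besides SREBF2, ARFGAP2, which acts on COPI coats, averaged 115.2 CPM under AIL and 83 CPM under DMSO (log2 difference 0.47, limma adjusted p = 6.16e-09). ZNF630, a zinc finger gene, averaged 3.09 CPM under AIL and 2.29 CPM under DMSO (log2 difference 0.31, limma adjusted p = 0.00894). MID1IP1, a regulator of fatty acid synthesis, averaged 16.4 CPM under AIL and 15.3 CPM under DMSO (log2 difference 0.10, limma adjusted p = 0.167). With the looser form, 126 tested genes held a match, of which 37 were called lower and 39 higher, where 25.9% of all tested genes were called lower and 28.2% higher, so nothing is read from these counts. The 4 genes are all the tested genes with the exact letters, but those other than SREBF2 were named outside the rule, after their values were seen.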
